A study of Mus musculus with 36 samples.

Results

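Dermatopontin (Dpt) and 9 other genes commonly used to mark resting fibroblasts were followed in mouse pancreatic fibroblasts cultured alone or beside tumour cells. The members were the rows of the count table whose symbol was Dpt, Pi16, Col15a1, Cd34, Ly6a, Ly6c1, Dcn, Lum, Clec3b or Ogn, which gave 10 genes of 39017. Dpt was chosen by its fall in these co-cultures, so its own values against the mono-culture are a description without a test. The fibroblasts were of the C57BL/6 strain and were grown alone (mono-culture) or for 48 h in direct contact with GFP-bearing tumour cells, from which they were then parted by flow sorting on GFP. The labels give this time for the co-cultures only. There were 4 poly(A) RNA-seq libraries in each of 9 groups: fibroblasts alone, fibroblasts with 1 of the tumour sub-clones E, H, K, M, N, T and V, and fibroblasts with the line KPC1, whose name the labels do not explain. Each co-culture was with a tumour line grown from 1 clone, KPC1 aside, so a difference among lines is a difference among these clones. The labels do not say whether the 4 libraries of a group came from separate cultures or animals, so p-values measure the spread between these libraries, which may be technical.

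Resting fibroblasts of many tissues share a programme of matrix and surface proteins, in which dermatopontin, a small matrix protein that binds decorin and collagen fibrils, is among the most widely used markers. Pi16 and Col15a1 (type XV collagen, found beside basement membranes) are used to mark different resting populations, the surface proteins Cd34 and Ly6a (Sca-1) mark progenitor-like stromal cells, and decorin (Dcn), lumican (Lum) and osteoglycin (Ogn) are small leucine-rich proteoglycans that coat collagen fibrils. In pancreatic tumours, fibroblasts that contact or receive signals from cancer cells take on activated states that secrete and remodel matrix.

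All 10 members are protein-coding genes of the GENCODE M21 annotation of GRCm38 (mm10), and some of them lie in family clusters. Dpt spans chr1:164796644-164824266 on the plus strand, Col15a1 spans chr4:47208161-47313167 on the plus strand, and Cd34 spans chr1:194938819-194961279 on the plus strand. Dcn (chr10:97479609-97518143, plus strand) and Lum (chr10:97565128-97572703, plus strand) are neighbours with 46984 bp between them and are followed by the related genes Kera and Epyc, whereas Ogn (chr13:49608046-49624501, plus strand) lies beside Omd, Aspn and Ecm2. Ly6a (chr15:74994877-74998031) and Ly6c1 (chr15:75044018-75048830) are neighbours on the minus strand with 45986 bp between them. Pi16 lies at chr17:29317680-29330593 and Clec3b at chr9:123150946-123157432, both on the plus strand.

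Promoter sequences were at hand for 6 of the 10 members (RefSeq, GRCm38.p6). The 250 bases before the RefSeq start, which lies 19 bases after the GENCODE start for Dpt and 149 and 31 bases before it for Col15a1 and Ogn, are shown for Dpt, the member with the deepest fall in the mean over clones, for Col15a1, the member that rose, and for Ogn, the member whose level differed most clearly among the clones. They lie at chr1:164796413-164796662, chr4:47207762-47208011 and chr13:49607765-49608014, all on the plus strand, and capitals mark matches to the motifs searched.
Dpt: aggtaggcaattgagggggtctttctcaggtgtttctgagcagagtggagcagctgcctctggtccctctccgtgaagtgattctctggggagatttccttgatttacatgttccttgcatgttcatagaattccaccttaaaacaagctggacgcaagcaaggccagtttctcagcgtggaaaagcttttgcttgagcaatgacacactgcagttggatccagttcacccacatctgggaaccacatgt
Col15a1: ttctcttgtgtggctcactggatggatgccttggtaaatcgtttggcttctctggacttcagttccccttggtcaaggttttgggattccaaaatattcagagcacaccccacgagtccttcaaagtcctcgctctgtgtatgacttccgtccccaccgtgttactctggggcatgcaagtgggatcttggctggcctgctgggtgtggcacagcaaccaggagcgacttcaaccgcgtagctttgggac
Ogn: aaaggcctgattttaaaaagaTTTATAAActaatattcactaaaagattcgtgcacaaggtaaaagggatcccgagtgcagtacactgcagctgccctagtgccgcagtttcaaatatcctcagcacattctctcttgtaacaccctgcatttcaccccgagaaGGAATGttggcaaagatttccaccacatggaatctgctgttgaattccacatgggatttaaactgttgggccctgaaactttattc
Motifs were searched on both strands, and their background is the share of 32851 RefSeq promoter windows of the same length that held them. The TATA box was searched as TATAAA, which 12.4% of the windows held. The letters used for AP-1 were TGANTCA, in 6.75% of the windows. Sites for TEAD factors were searched as GGAATG, present in 12.6%. The Ogn window held 2 overlapping TATA matches, on opposite strands, which start 229 and 227 bases before the RefSeq start, and 1 TEAD match that starts 86 bases before it. The Dpt and Col15a1 windows held no match to these letters.

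Library totals ran from 12532122 to 21985538 counts, and levels are given in CPM (counts scaled to a common library total, with TMM factors between libraries). The sorted cells carried fibroblast transcripts throughout: the summed level of 10 fibroblast identity genes (among them Pdgfra, Col1a1, Thy1 and Vim) was 28700 to 31730 CPM in the mono-culture and 22390 to 45630 CPM in co-culture. Matrix genes dominate this sum, with a mono-culture mean of 7268 CPM for Col1a1 against 312 CPM for Pdgfra and 195 CPM for Thy1. Epithelial transcripts, which tumour cells of the pancreas carry, were present in co-culture. The summed level of 11 epithelial genes, among them Krt8, Krt18, Krt19 and Epcam, was 2.81 to 4.35 CPM in the mono-culture and 20.9 to 802 CPM in co-culture. In the mean over clones 7 of its 8 tested genes were higher, 0 lower and 1 was not called, beside 24.3% of all genes higher and 24.9% lower. In bulk RNA, fewer cells of a type and less RNA per cell cannot be told apart.

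Dpt was lower in every co-culture library than in any mono-culture library. The share of all genes whose libraries separate without overlap was not counted, for Dpt or for the members below. It stood at 228, 175, 126 and 137 CPM in the 4 mono-culture libraries (166 ± 45.8 CPM, SD, n = 4). The highest of the 32 co-culture libraries, clone K replicate 4, reached 33.9 CPM. With clone E the libraries held 15.5, 24.98, 27.5 and 31.97 CPM (24.99 ± 6.98). With clone M they held 24.1, 25.02, 15.8 and 27.5 CPM (23.1 ± 5.10), and with clone K 14.0, 20.3, 17.3 and 33.9 CPM (21.4 ± 8.72). These 3 lines left Dpt at its highest co-culture levels, and their libraries overlapped one another over most of their range. With clone H the libraries ranged more widely, at 10.7, 19.1, 7.38 and 25.6 CPM (15.7 ± 8.26), while with clone N they lay close together at 12.3, 19.01, 15.2 and 15.99 CPM (15.6 ± 2.77). With clone V the values were 3.61, 10.6, 3.54 and 6.76 CPM (6.13 ± 3.33), and with clone T 3.82, 4.12, 4.21 and 5.54 CPM (4.42 ± 0.762). KPC1 gave the lowest values, 1.69, 2.71, 3.27 and 5.13 CPM (3.20 ± 1.45). The clone T and KPC1 libraries were all below every library of clones E, H, K, M and N.

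**Figure D1:**
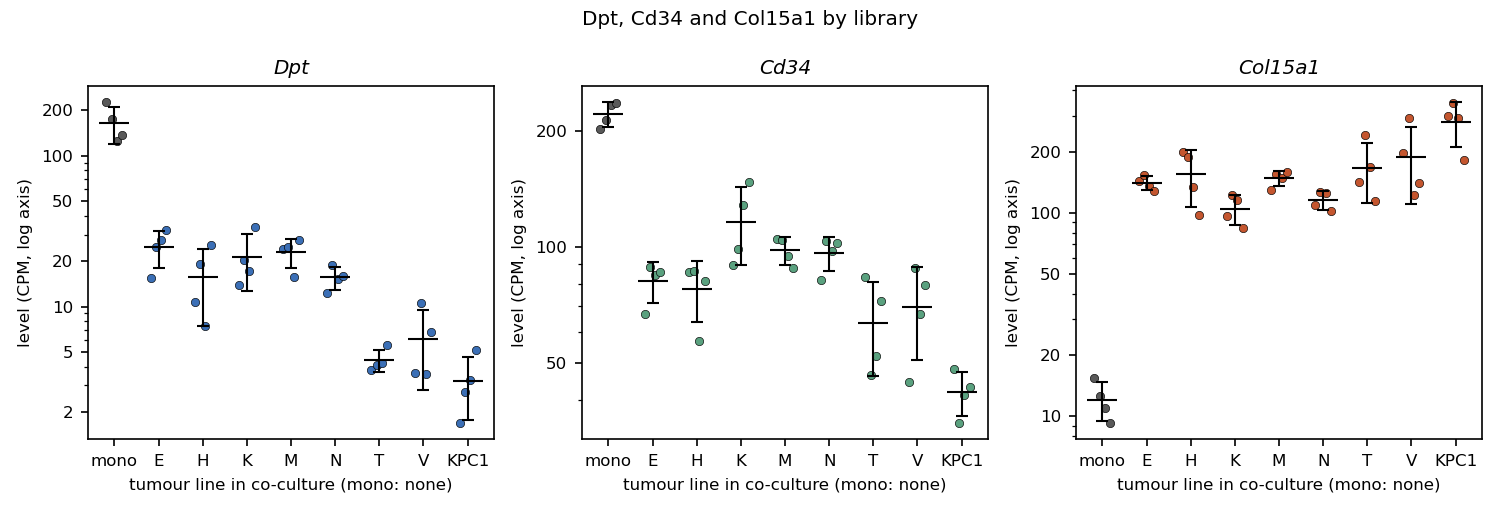
Levels of Dpt, Cd34 and Col15a1 in CPM on log axes, 1 point per library for the mono-culture (grey) and the 8 co-cultures, with bars at the group mean ± SD (n = 4). The 32 co-culture libraries of Dpt sit between 1.69 and 33.9 CPM and those of Cd34 between 34.9 and 147 CPM, all below the mono-culture, whereas those of Col15a1 sit between 84.0 and 349 CPM, all above it.

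As a ratio of group means, Dpt was lower in every line, 6.66-fold for E, 7.20-fold for M, 7.78-fold for K, 10.6-fold for H, 10.7-fold for N, 27.2-fold for V, 37.6-fold for T and 52.0-fold for KPC1. These folds belong to the contrast by which Dpt was chosen. The levels within co-culture use no mono-culture library, and there the difference among the 7 clones passed the test, with a range of 2.49 on the log2 scale between clones E and T (edgeR, adjusted p = 2.19e-06). In that F-test 67.5% of all 14439 genes tested passed, and so did all 9 tested members, so a difference among clones was the rule for the genes of these fibroblasts. Among neighbours in the order of Dpt levels (E, M, K, H, N, V, T, KPC1) only the step from clone N to clone V passed the test, at a log2 difference of 1.34 (SE 0.36, edgeR adjusted p = 0.00347), in a pair where 43.5% of all genes differed. The other neighbours differed by 0.01 to 0.48 on the log2 scale and were not called, with a background of 11.5% of genes called for E and M, 2.24% for M and K, 49.8% for K and H, 32.3% for H and N, 24% for V and T and 5.36% for T and KPC1. Of all 28 pairs of co-cultures, 14 differed in Dpt. Clones H and V were not among them, with a log2 difference of 1.36 (SE 0.36, edgeR adjusted p = 0.0888).

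Epithelial transcripts in the sorted cells did not order the lines as Dpt did. The mean summed level of the epithelial genes was lowest with clone V (104 CPM), clone K (155 CPM) and clone H (159 CPM) and highest with clones T (501 CPM) and N (543 CPM), with 255 CPM for clone M, 358 CPM for clone E and 360 CPM for KPC1. The co-culture library with the least epithelial signal, clone K replicate 2 at 20.9 CPM, held 20.3 CPM of Dpt, 98.9 CPM of Cd34 and 123 CPM of Col15a1, all outside the mono-culture range. In 4 of the 8 lines the library with the highest epithelial sum had the lowest Dpt level. With clones K and N that library had the highest Dpt level of its line instead. The part of epithelial transcripts in the levels of Dpt, Cd34 and Col15a1 was not tested.

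The other members did not move as a block. Of the 8 members other than Dpt that passed the filter on low counts, 6 were called lower with KPC1 and 1 higher, where 28.5% of all genes tested were called lower and 30.5% higher. With clone H 7 were lower and 1 higher (background 26.4% and 27.8%), with clone T 5 lower and 2 higher (24.7% and 25%), and with clone V 5 lower and 1 higher (28.9% and 29.4%). With clone N 3 were lower and 2 higher (19.2% and 19.7%), and with clone E 2 were lower and 2 higher (15.5% and 16.5%). With clones K and M only Cd34 was lower and only Col15a1 higher (8.69% and 10.4% of all genes with clone K, 10.8% and 12.2% with clone M). The median log2 change of the 8 genes was -1.94 for KPC1, -1.48 for clone H, -1.42 for clone V and -1.41 for clone T. It was -0.28 for clone N, -0.12 for clone M, -0.09 for clone E and 0.24 for clone K, while the median of all genes stayed within 0.02 of 0 in every contrast. In the mean over the 7 clones, 4 of the 8 were lower and 1 higher, beside 24.9% and 24.3% of all genes. These 8 contrasts share the same 4 mono-culture libraries, so the lines are not independent of one another. Calls are from edgeR at an adjusted p-value threshold of 0.05.

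**Figure D2:**
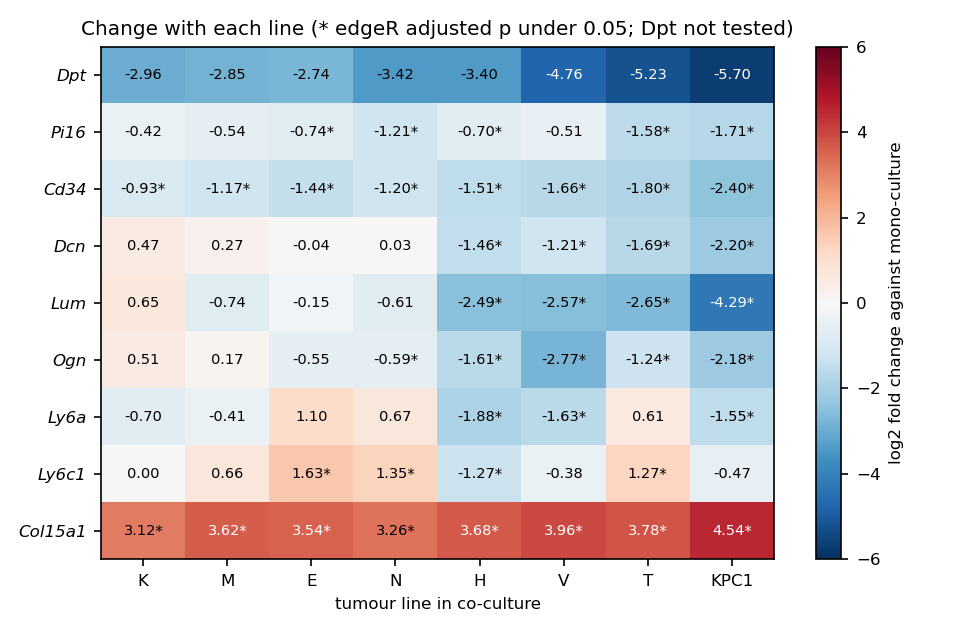
Log2 fold change of each tested member against the mono-culture (colour and number) for the 8 lines, ordered by the pattern of the members, with asterisks for an edgeR adjusted p under 0.05 and Dpt not tested. Dpt and Cd34 are lower and Col15a1 higher with every line, whereas Dcn, Lum and Ogn reach their lowest values with clones H, V and T and KPC1, and Ly6a and Ly6c1 follow a different order.

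Cd34, a sialomucin of the surface of stromal and blood progenitor cells, fell in every line. The mono-culture libraries held 202, 213, 232 and 236 CPM (221 ± 16.2, n = 4). The KPC1 libraries held 48.3, 34.9, 41.2 and 43.3 CPM (41.9 ± 5.54), and the clone K libraries, the highest of the co-cultures, 89.5, 98.9, 128 and 147 CPM (116 ± 26.6). All 32 co-culture libraries lay below every mono-culture library, a separation whose share over all genes was not counted. Its log2 changes ran from -0.93 with clone K (edgeR adjusted p = 0.000313) to -2.40 with KPC1 (adjusted p = 2.26e-11), with -1.39 in the mean over clones (SE 0.12, adjusted p = 9.65e-11). Its range among clones was narrow, at 0.87 on the log2 scale (adjusted p = 0.000870).

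Pi16, a secreted peptidase inhibitor that marks a resting population, was scarce in these cells, with 8 to 47 counts per library. The mono-culture libraries held 1.98, 1.76, 3.57 and 1.60 CPM, the third standing above the rest, and 25 of the 32 co-culture libraries were below all of them. It was called lower in 5 of 8 lines, with its lowest levels in KPC1 at 0.422, 0.784, 0.924 and 0.570 CPM (log2 change -1.71, SE 0.30, edgeR adjusted p = 1.23e-05) and in clone T at 0.786, 0.495, 0.601 and 1.05 CPM (log2 change -1.58, adjusted p = 4.53e-05). The changes with clones E (-0.74) and H (-0.70) became -0.42 and -0.38 without mono-culture replicate 3 (edgeR adjusted p = 0.288 and 0.270). The call with clone E was also lost without clone E replicate 1 (-0.59, adjusted p = 0.148), 2 (0.103) or 4 (0.0625), and that with clone H without clone H replicate 2 (-0.65, adjusted p = 0.0761), 3 (0.0810) or 4 (0.0771). Both were lost when only the 8 libraries compared were fitted (adjusted p = 0.0898 and 0.0650). The mean over clones, -0.81 with adjusted p = 0.00106, likewise became -0.49 with adjusted p = 0.0645. Clec3b, which encodes the plasminogen-binding protein tetranectin, was the member that failed the filter: it had 79 counts in all 36 libraries together, 0 counts in 7 of them and more than 3 counts in 11. Since 3 counts was the floor set for detection, no direction is given for it.

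Col15a1 went the other way, against its use as a marker of the resting state. Its mono-culture libraries held 15.4, 12.7, 10.95 and 9.28 CPM (12.1 ± 2.62, n = 4). The clone K libraries, the lowest of the co-cultures, held 96.2, 123, 116 and 84.0 CPM, and the KPC1 libraries 299, 349, 293 and 182 CPM (281 ± 70.5). All 32 co-culture libraries were above every mono-culture library, and the share of all genes that separate so was not counted. Col15a1 rose in all 8 lines, by 3.12 on the log2 scale with clone K (SE 0.26, edgeR adjusted p = 1.37e-09) up to 4.54 with KPC1 (SE 0.28, adjusted p = 4.60e-13), and by 3.57 in the mean over clones (SE 0.24, adjusted p = 1.44e-12). The range among clones, 0.84, was the smallest of the members and passed the test narrowly (adjusted p = 0.0319). Without clone V replicate 2, which held 292 CPM against 197, 122 and 140 CPM in the other libraries of its group, it was 0.67 with adjusted p = 0.0650, and it also missed the threshold without clone K replicate 1 (adjusted p = 0.0686), clone K replicate 4 (0.0639) or clone N replicate 4 (0.0543).

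Per length, Col15a1 and Dpt changed places. In RPKM (reads scaled to transcript length and library total), the mono-culture order was Dcn (188), Ogn (126), Dpt (101), Cd34 (90.3), Ly6a (17.3), Ly6c1 (10.1), Lum (2.70), Col15a1 (2.44), Pi16 (0.795) and Clec3b (0.263), as means of 4 libraries. With KPC1, Col15a1 led at 53.1 ± 13.2 RPKM, followed by Dcn at 38.7 ± 19.7, Ogn at 26.1 ± 5.73 and Cd34 at 16.1 ± 1.97, and Dpt stood at 1.83 ± 0.845. Within a library, the ratio of Col15a1 to Dpt RPKM was 0.0225 to 0.0290 in the mono-culture, 0.827 to 2.29 with clone K and 11.8 to 59.0 with KPC1.

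The small leucine-rich proteoglycans Dcn, Lum and Ogn divided the lines. Ogn held 312, 349, 286 and 292 CPM in the mono-culture (310 ± 28.7, n = 4). With clone K it held 325, 482, 437 and 515 CPM, of which 3 libraries were above every mono-culture library, and with clone M 358, 460, 264 and 315 CPM. With clone V it held only 30.8, 65.7, 38.7 and 46.6 CPM, and with KPC1 53.8, 59.6, 86.2 and 74.0 CPM. Neither clone K nor clone M differed from the mono-culture in the test (log2 changes 0.51 and 0.17, edgeR adjusted p = 0.105 and 0.619), though clone K was called higher when only the 8 libraries compared were fitted (0.51, adjusted p = 0.0160). Ogn fell by 2.77 in the clone V co-culture (SE 0.23, edgeR adjusted p = 8.60e-11), and the log2 changes for KPC1, clone H and clone T, also called, were -2.18, -1.61 and -1.24. The fall of 0.59 with clone N (adjusted p = 0.0327) missed the threshold without clone N replicate 3 (-0.54, adjusted p = 0.0864), clone N replicate 4 (-0.43, adjusted p = 0.141) or mono-culture replicate 2 (-0.52, adjusted p = 0.0896). The change of -0.55 with clone E lay at the threshold (adjusted p = 0.0512): it passed in 7 alternative fits, with adjusted p-values of 0.0147 to 0.0411, and in 14 of the 36 fits that left out a library, among them that without clone E replicate 2 (-0.74, adjusted p = 0.0139). Among clones, Ogn spanned 3.27 on the log2 scale, with the smallest p-value of the members (adjusted p = 1.79e-11).

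Decorin, which binds type I collagen and TGF-beta, was abundant and variable in the mono-culture, at 412, 453, 225 and 178 CPM (317 ± 136, n = 4). With clone K it was at 484, 515, 316 and 440 CPM, and with clones E, M and N every library was likewise at or above the lowest mono-culture value. With KPC1 it was at 31.1, 56.3, 76.2 and 113 CPM, and with clone T at 59.8, 76.2, 96.4 and 162 CPM, without overlap with the mono-culture. Dcn fell with KPC1 (log2 change -2.20, edgeR adjusted p = 2.29e-05), clone T (-1.69), clone H (-1.46) and clone V (-1.21, adjusted p = 0.00781) and was not called with the other 4 clones, at -0.04 to 0.47. Its mean over clones, -0.52, was not called (adjusted p = 0.117), and it was -0.71 with adjusted p = 0.0497 without mono-culture replicate 4 and -0.29 without mono-culture replicate 2.

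Lumican, a keratan sulphate proteoglycan, followed the same division at a much lower level. The mono-culture libraries held 8.31, 9.46, 4.03 and 3.61 CPM and the clone K libraries 11.6, 12.4, 8.04 and 8.05 CPM. The KPC1 libraries held 0.105, 0.181, 0.554 and 0.456 CPM, and the lowest count in a library was 2. All libraries of clones H, T and V and of KPC1 were below the mono-culture. Lum fell in these 4 lines, with log2 changes of -2.49 for H, -2.65 for T, -2.57 for V and -4.29 for KPC1 (SE 0.60, edgeR adjusted p = 4.67e-07), and was not called with clones E (-0.15), K (0.65), M (-0.74) and N (-0.61).

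**Figure D3:**
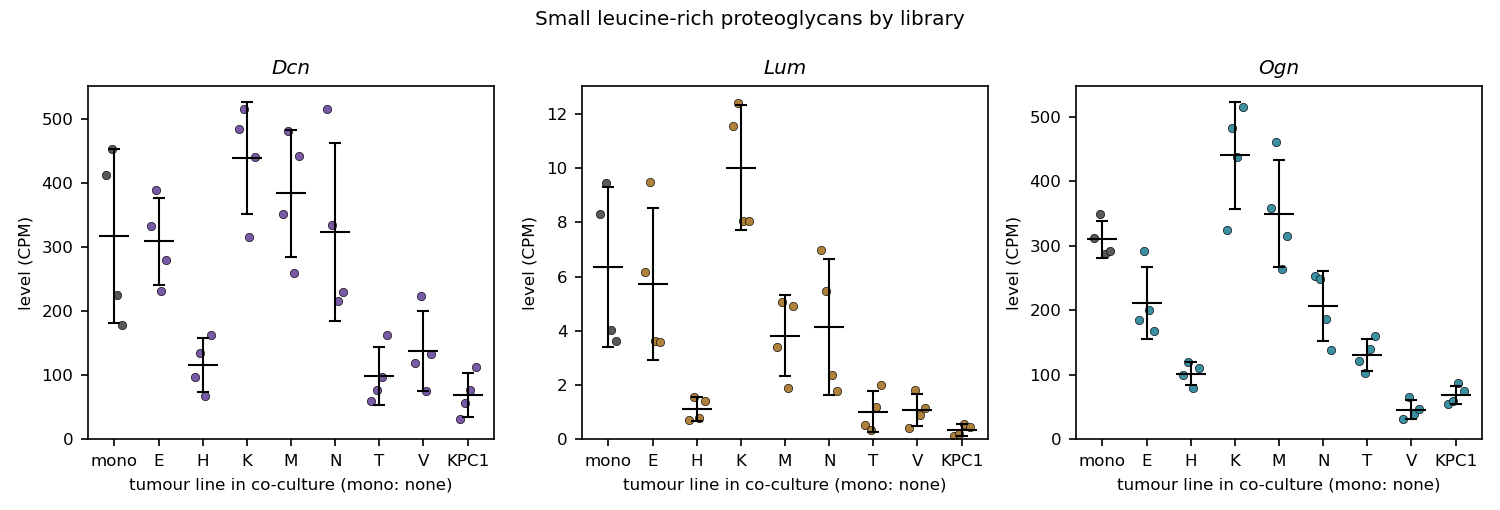
Levels of Dcn, Lum and Ogn in CPM (axes from 0), 1 point per library, with bars at the group mean ± SD (n = 4). The clone K means are the highest of the 9 groups for all 3 genes (439, 10.01 and 440 CPM), and those with clones H, T and V and KPC1 lie at or below 137, 1.11 and 131 CPM.

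Ly6a and Ly6c1, which encode small GPI-anchored surface proteins, moved together and in an order of their own. Ly6a held 10.9, 10.7, 14.4 and 18.1 CPM in the mono-culture, and Ly6c1 6.77, 6.33, 9.05 and 10.3 CPM. With clone E, Ly6a held 28.4, 27.7, 40.4 and 19.5 CPM and Ly6c1 24.1, 22.1, 37.0 and 17.2 CPM, all above the mono-culture. With clone H, Ly6a held 2.04, 2.93, 3.41 and 6.15 CPM and Ly6c1 2.04, 2.93, 3.82 and 4.54 CPM, all below it. Clones E and H were the extremes of the clones for both genes, 2.98 apart on the log2 scale for Ly6a and 2.90 for Ly6c1 (edgeR F-test among clones, adjusted p = 4.18e-06 and 0.000118). Clone T, where Dpt, Dcn and Lum were among the lowest, held 36.1, 7.20, 15.2 and 24.1 CPM of Ly6a, a spread that took in the mono-culture range.

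In the tests against the mono-culture, Ly6a was lower with clone H (-1.88, SE 0.48, edgeR adjusted p = 0.00158), clone V (-1.63, adjusted p = 0.00434) and KPC1 (-1.55, adjusted p = 0.00633), and higher with no line. Its change of 1.10 with clone E missed the threshold (SE 0.45, edgeR adjusted p = 0.0593), and passed without clone E replicate 4 (1.24, adjusted p = 0.0484) or clone T replicate 2 (adjusted p = 0.0418). Ly6c1 was called higher with clones E (1.63, edgeR adjusted p = 0.0132), N (1.35, adjusted p = 0.0321) and T (1.27, adjusted p = 0.0359) and lower with clone H (-1.27, adjusted p = 0.0448). Each of these 4 calls was lost on leaving out a library: 1.39 without clone E replicate 3 (adjusted p = 0.0527), 1.11 without clone N replicate 2 (adjusted p = 0.105), 0.81 without clone T replicate 1 (adjusted p = 0.200) and -1.10 without clone H replicate 1 (adjusted p = 0.115). Neither gene was called in the mean over clones (Ly6a -0.32, Ly6c1 0.47). The ratio of Ly6c1 to Ly6a counts was 0.602 ± 0.0290 in the mono-culture (0.567 to 0.630), below that of every co-culture library, and reached 1.45 ± 0.199 with clone V.

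These values carry 2 limits. Of the 76-base windows of the Ly6c1 transcripts, 18.5% also occur in another gene, 14.5% in Ly6c2 and 72 windows in Ly6a, and of those of Ly6a 5.87% do, so reads could be shared between these copies and both genes are uncertain to that extent. Dpt, Col15a1, Dcn, Lum, Ogn and Clec3b share no such window with another gene, while Cd34 shares 1.02% and Pi16 2.35%. Ly6a also moved with epithelial transcripts: in 6 of the 8 lines, the library with the highest epithelial sum had the highest Ly6a level, as in clone T replicate 1 with 802 CPM of epithelial genes and 36.1 CPM of Ly6a. The part of those transcripts in the result was not tested. The summed level of 10 interferon response genes, which Ly6a can follow in other cells, was 714 ± 256 CPM in the mono-culture, 470 ± 247 CPM with clone H, where Ly6a was lowest, and 193 ± 84.3 CPM with clone T. It was 255 ± 70.8 CPM with clone E, where Ly6a was highest, and 366 ± 104 CPM with clone V. With clones K, M and N it was 211, 200 and 241 CPM, and with KPC1 330 CPM. The relation of these genes to Ly6a was not tested.

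**Figure D4:**
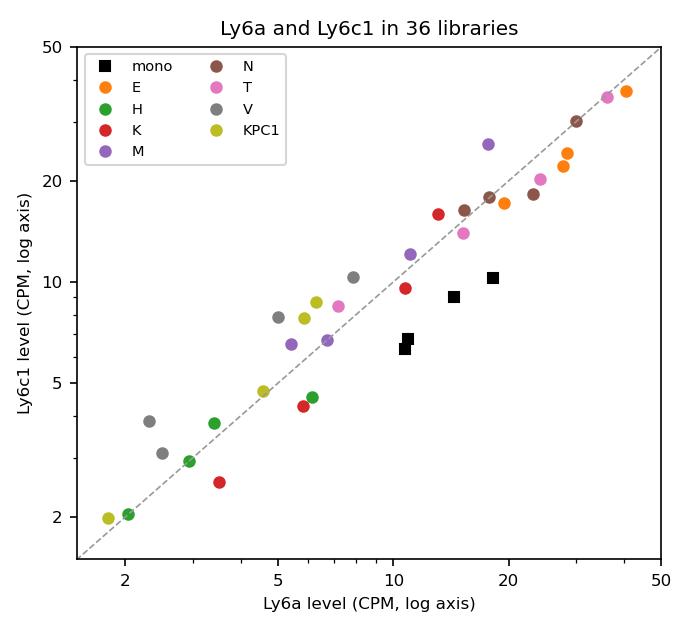
Level of Ly6c1 against that of Ly6a in CPM, both on log axes, for the 36 libraries by group, with the line of equal levels dashed. The 4 mono-culture libraries (squares) have a lower ratio of Ly6c1 to Ly6a counts, 0.567 to 0.630, than every co-culture library. Clones E and H have the highest and the lowest group means of both genes.

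KPC1 stood apart from the mean of the clones for most members. Of the 9 tested members, Dpt included since no mono-culture library enters this contrast, 7 were lower with KPC1 and 1 higher, where 18.8% and 22.3% of all genes were. The largest difference was that of Lum (log2 -3.06, SE 0.53, edgeR adjusted p = 5.12e-05), followed by Dpt (-2.08, SE 0.33, adjusted p = 2.07e-05), Dcn (-1.68, adjusted p = 0.000198), Ogn (-1.31, adjusted p = 4.15e-06), Ly6a (-1.22, adjusted p = 0.0134), Cd34 (-1.01, adjusted p = 5.63e-06) and Pi16 (-0.89, adjusted p = 0.00400). The KPC1 libraries held 2 to 9 counts of Lum, near the floor of 3 counts, so the size of its difference is uncertain. Col15a1 was higher by 0.97 (adjusted p = 3.68e-05), and Ly6c1 was not called (-0.94, adjusted p = 0.0697). Without KPC1 replicate 2, the library with the least Ly6a (1.81 CPM), the difference of Ly6a became -0.95 with adjusted p = 0.0821. Clone T was nevertheless close to KPC1 in Dpt, 0.47 higher on the log2 scale without passing the test (SE 0.41, adjusted p = 0.525), and differed from it in Ly6a by 2.15 (adjusted p = 0.0104). In Lum, Dcn and Ogn, clones H, T and V taken singly were less apart from KPC1 than the mean of the clones was. This did not hold for every member: clone H was 2.30 above KPC1 in Dpt and clone V 1.20 above it in Pi16. Lum (edgeR adjusted p = 0.116, 0.128 and 0.0825) and Dcn (0.302, 0.44 and 0.0905) were not called between KPC1 and clone H, T or V. Only Pi16 and Cd34 were called against clone V, and only Dpt, Col15a1 and Cd34 against clone H. Against clone T, Cd34, Ly6a, Ly6c1 and Ogn were called, in a pair where 5.36% of all genes differed. That share is not given for clones H and V. Each of these pairs rests on fewer libraries than the contrast with the mean of the clones. Lum differed from KPC1 by 1.79, 1.64 and 1.72 for clones H, T and V (SE 0.64, 0.65 and 0.65) without being called. A missing call in these pairs is therefore no measure of closeness to KPC1.

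Correlations between members in log2 CPM over the 32 co-culture libraries are given as a description, since the 4 libraries of a line share that line. Ly6a and Ly6c1 were the closest pair (Pearson r = 0.971, and 0.961 after the mean of each line was subtracted). Dcn and Lum followed (0.944, and 0.825 within lines), then Dpt and Dcn (0.849, 0.638), Lum and Ogn (0.841, 0.814), Dpt and Lum (0.827, 0.461), Dcn and Ogn (0.814, 0.686) and Dpt and Cd34 (0.812, 0.533). Dpt and Col15a1 ran against each other (-0.601) but hardly within lines (-0.120).

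The genes whose levels were most like those of Dpt were found over all 36 libraries among genes of at least 2 CPM on average, by Pearson r of log2 CPM. They were Mme, which encodes the peptidase neprilysin (r = 0.956, and 0.906 over the 32 co-culture libraries), Figf, the lymphatic growth factor VEGF-D (0.922, 0.856), the claudin Cldn15 (0.915, 0.814), Efemp1, which encodes the matrix protein fibulin-3 (0.913, 0.861), and Oscp1 (0.912, 0.833). Mme averaged 76.7 CPM in the mono-culture and ran from 1.42 to 29.6 CPM in co-culture, and Figf averaged 184 CPM against 9.51 to 91.2 CPM. Efemp1, itself a marker of resting fibroblasts, averaged 632 CPM against 104 to 487 CPM. Since they were picked for likeness to Dpt, these ranges are a description.

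Other resting fibroblast genes gave a mixed account. Of 18 genes of this kind, 15 passed the filter, and in the mean over clones, where 24.9% of all genes were lower and 24.3% higher, 8 were lower, 4 higher and 3 not called, with a median log2 change of -0.40 against 0.0058 for all genes. Tnxb, a tenascin of connective tissue, fell by 2.97 (SE 0.23, edgeR adjusted p = 8.58e-12), from a mean of 12.3 CPM in the mono-culture to a co-culture median of 1.21 CPM. Sema3c, a secreted guidance factor, fell by 2.80 (SE 0.19, adjusted p = 1.69e-12), from 298 to 40.9 CPM. Pcolce2, which enhances the processing of procollagen, rose by 1.495 (SE 0.17, adjusted p = 1.82e-08), and Sfrp4, a Wnt inhibitor, rose by 1.33 (SE 0.36, adjusted p = 0.00261). Of the 11 other small leucine-rich proteoglycans tested, 3 were lower, 3 higher and 5 not called (median -0.24), shares close to the 24.9% and 24.3% of all genes. Kera and Epyc, which follow Lum on its chromosome, fell by 4.01 and 3.38 (edgeR adjusted p = 1.15e-07 and 3.98e-06). They were scarce, at 0.811 and 0.540 CPM in the mono-culture, with co-culture medians of 0.0285 and 0.0516 CPM that are near the level of a single read, so the size of these changes is uncertain. Aspn, a neighbour of Ogn, rose by 2.00 (adjusted p = 2.77e-10), from 17.4 to 73.3 CPM, and Podn rose by 1.30 (adjusted p = 0.000302). Of 8 other Ly6 genes in the table only Ly6e passed the filter, and it fell by 0.68 (adjusted p = 7.42e-05).

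Of 13 activated fibroblast genes tested, 7 were higher, 1 lower and 5 not called in the mean over clones (median 1.07), beside 24.3% of all genes higher and 24.9% lower. Their summed level, which the collagens dominate, was 19250 ± 1003 CPM in the mono-culture and ranged by line from 26400 ± 6009 CPM with clone K to 12290 ± 924 CPM with KPC1. With KPC1, Col1a1 (-0.78), Col1a2 (-1.01), Col3a1 (-0.94), Myl9 (-1.49) and Tpm2 (-0.65) were called lower. Among those called higher with KPC1 were Acta2 (1.10), Tagln (1.66), Postn (0.68), Tnc (1.99) and Fap (5.71), while Cnn1 and Lrrc15 were not called. Of all genes tested, 28.5% were lower and 30.5% higher with KPC1. In the mean over clones, Fap, a surface peptidase of cancer-associated fibroblasts, rose by 5.13 (SE 0.26, edgeR adjusted p = 6.49e-15), from 1.08 to 46.5 CPM. The lowest changes of that list were those of Tpm2, a tropomyosin (-0.23, adjusted p = 0.0300), and Col1a2 (-0.23, not called, adjusted p = 0.123). All 10 interferon response genes were lower (median -1.56), from Cmpk2 (-2.47) and Rsad2 (-1.83) to Isg15 (-1.18) and Oas1a (-1.13, adjusted p = 0.00376). Of the 10 fibroblast identity genes, 3 were higher, among them Pdgfrb (0.93) and Fn1 (0.71), 1 was lower (Pdgfra, -0.70) and 6 were not called.

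Other cell types were followed by their marker genes. Of 7 endothelial genes, 3 had at most 3 counts in every library and the sum was 2.28 to 4.02 CPM in the mono-culture and 1.68 to 6.69 CPM in co-culture. Endothelial cells are a usual source of Cd34, Ly6a and Ly6c1, and this sum compares with 34.9 to 236 CPM of Cd34. It also compares with 1.81 to 40.4 CPM of Ly6a and 1.99 to 37.0 CPM of Ly6c1, whose lowest levels lie within the range of the sum. The sum of 7 leukocyte genes was 5.70 to 9.30 CPM in the mono-culture and 1.44 to 16.2 CPM in co-culture. That of 5 mesothelial genes was 8.59 to 14.99 and 3.58 to 70.5 CPM, and that of 6 pericyte genes 104 to 116 and 129 to 629 CPM. Of the 4 pericyte genes tested, 2 were higher, 1 lower and 1 not called in the mean over clones. The shares of all genes in that contrast were 24.3% higher and 24.9% lower. The part of these transcripts in the results was not tested.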

How the data were processed

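The authors deposited whole-number read counts for 39017 genes in 36 libraries, with no scaling, and RPKM values for 37746 genes; the submitters' processing notes name STAR, featureCounts, edgeR and the mm10 build, while the annotation release, versions and use of strand in counting are not given in the sources used here. Groups came from the sample labels, with 4 libraries each. Counts were filtered by filterByExpr (14439 genes kept), scaled by TMM and fitted in edgeR 4.0.16 (R 4.3.3; robust quasi-likelihood, 1 coefficient per group, all 36 libraries). P-values were adjusted by Benjamini-Hochberg over all genes tested, with a threshold of 0.05. Standard errors are the absolute log2 fold change over the square root of F, log2 CPM used a prior count of 1, and 3 counts was the floor for detection, which covers counting error only.

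Alternatives were DESeq2 1.42.0, RLE scaling, library totals only, a minimum of 10 counts in every library or none at all, a replicate block, limma-trend (limma 3.58.1) on log2(RPKM + 1) or log2(RPKM + 0.1), fits of only the libraries compared, and the omission of single libraries. Scripts were tested on simulated data. Members, gene lists and tests were chosen with earlier results of these data known. Named genes were the 10 members, the 5 genes most like Dpt, and the 2 highest and 2 lowest changes of each list in the mean over clones (marker lists by counts and sums), apart from 1 gene that is not reported here. No 2 libraries of a group agreed within sampling noise (chi-square per degree of freedom at least 5.84). Shared 76-base windows and gene positions came from GENCODE M21.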

Additional observations from a re-analysis of the deposited data

Results flagged for a closer look

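A library stood apart from the other 3 of its group for 2 members. Pi16 in clone H replicate 1 was high, at 1.86 CPM against 1.18 to 1.21 CPM, a gap of 0.938 of the range of the group. Cd34 in clone H replicate 3 was low, at 57.1 CPM against 81.5 to 86.3 CPM, a gap of 0.86 of the range. Both gaps passed Dixon's limit for 4 values, which about 4.05 of the 81 sets of 4 values examined would pass by chance.

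The effect of co-culture differed between lines for every tested member, by the edgeR F-test among the 7 clones. On the log2 scale the range between the highest and the lowest clone was 2.49 for Dpt, 1.17 for Pi16, 0.84 for Col15a1, 0.87 for Cd34, 2.98 for Ly6a, 2.90 for Ly6c1, 2.15 for Dcn, 3.30 for Lum and 3.27 for Ogn. KPC1 differed from the mean of the clones by -2.08 for Dpt, -0.89 for Pi16, 0.97 for Col15a1, -1.01 for Cd34, -1.22 for Ly6a, -1.68 for Dcn, -3.06 for Lum and -1.31 for Ogn. Since 67.5% of all genes tested differed among the clones, these differences are not particular to the members.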

How the results depend on the processing

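Among 851 recomputed values of single genes, leaving out a library aside, 10 changed sign, 12 lost a call and 16 gained one. Of the gains, 7 were those of Ogn with clone E (all alternatives but RLE scaling and no filter, adjusted p = 0.0147 to 0.0411), 4 those of Ly6c1 between KPC1 and the clones (DESeq2 0.0446, both limma-trend fits 0.0408 and 0.0433, and the replicate block), and 3 came from fits of only the 8 libraries compared (Ly6a with clones E, 0.00413, and N, 0.0344, and Ogn with clone K, 0.0160). The others were Ly6a with clone E under the block and Pi16 with clone V under limma-trend on log2(RPKM + 1) (0.0293). Ly6c1 with clone K, 0.0021 on the log2 scale, changed sign with DESeq2 (-0.013), RLE scaling (-0.0066), library totals only (-0.058), at least 10 counts in every library (-0.010), limma-trend on log2(RPKM + 1) (-0.29) and on log2(RPKM + 0.1) (-0.36). Dcn with clone N, 0.028, became -0.022 with library totals only and -0.019 with either limma-trend fit. The number of members called with clone N fell from 5 to 3 with no filter, and that in the mean over clones from 5 to 3 with at least 10 counts in every library, where Lum and Pi16 were not tested. Col15a1 among clones missed the threshold with no filter (adjusted p = 0.0566), and Pi16 with clones E and H did so with no filter (0.0827 and 0.0718) and in fits of only the 8 libraries compared (0.0898 and 0.0650). Ly6c1 with clones H, N and T and Ogn with clone N were lost with no filter (0.0936, 0.0677, 0.0687 and 0.0584), and Ly6c1 with clones N and T also under limma-trend (0.0558 to 0.108). Library totals only moved the share of higher genes among those called by at most 9.2 percentage points.

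Replicate numbers were not taken to pair the libraries, since the labels give no shared origin and not every same-numbered pair correlated: same-numbered deviations from the group means correlated at -0.582 to 0.461 between the mono-culture and co-cultures, over 0.1 in 5 of 32 pairs, and at -0.519 to 0.693 between co-cultures (median 0.143, against -0.029 for other numbers), over 0.1 in 63 of 112 pairs. All pairs were over 0.1 in 3 of 28 pairs of co-cultures and in 0 of 8 with the mono-culture. The library names number the co-cultures in sets by replicate, each with all lines, and number the mono-culture libraries together after them. Whether libraries were handled in this order is not stated, so any such effect could not be told apart from that of co-culture. Correlations were also averaged over the libraries of other groups for each of the 4 numbers. By that mean, 24 of the 32 co-culture libraries correlated best with their own number, and no mono-culture library did. With a replicate block Ly6c1 with clone K was -0.13, Ly6a and Ogn with clone E passed the threshold (adjusted p = 0.0302 and 0.0290), as did Ly6c1 between KPC1 and the clones (0.0436), and no other call changed. Leaving out a library in turn moved the log2 change with clone E from -0.24 to 0.19 for Dcn and from -0.50 to 0.12 for Lum, with clone K from -0.54 to 0.29 for Ly6c1, and with clone N from -0.31 to 0.26 for Dcn. The number of members called with clone N ran from 3 to 5, and was 3 without mono-culture replicate 2. The cause of these changes was not tested. Depth limits Pi16 and Lum, with 8 and 2 counts in their lowest libraries, and Clec3b.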
